A study of Homo sapiens with 24 samples.

Results

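The set described here holds the enzymes that hydroxylate and cross-link collagen: the lysyl oxidases LOX, LOXL1 and LOXL2, the prolyl 4-hydroxylase subunits P4HA1, P4HA2 and P4HB, and the lysyl hydroxylases PLOD1, PLOD2 and PLOD3. All 15 probes that the array annotation assigns to these 9 genes were taken from the 47231 probes of the array. Their levels were read in 24 bead arrays of Huh-7, an established human hepatocellular carcinoma cell line, in stable lines made with lentiviral short hairpin RNAs. The line labelled shGFP carried a hairpin against GFP, which is not a human gene, and served as the control. The lines labelled shHIF-1A and shNDRG3 carried hairpins against HIF-1A, the oxygen-regulated subunit of the transcription factor HIF-1, and against NDRG3. The shGFP line was measured in normoxia (2 arrays) and after 3 h (3 arrays), 6 h, 12 h and 24 h (2 arrays each) at 1% oxygen. The shHIF-1A line was measured at 3 h (3 arrays), 6 h and 12 h (2 arrays each), and the shNDRG3 line at 6 h, 12 h and 24 h (2 arrays each). All lines share the lentiviral vector treatment, and each target was represented by 1 hairpin line.

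These enzymes act in sequence on collagen. Prolyl 4-hydroxylase, a tetramer of catalytic alpha subunits (P4HA1 or P4HA2) and the disulfide isomerase P4HB, hydroxylates proline in new collagen chains and so stabilises the triple helix. The lysyl hydroxylases PLOD1, PLOD2 and PLOD3 hydroxylate lysine in the helix or in the telopeptides, and the secreted lysyl oxidases then oxidise lysine and hydroxylysine side chains so that collagen and elastin can be cross-linked. The hydroxylases use molecular oxygen as a substrate, and LOX, P4HA1, P4HA2 and PLOD2 are known as genes induced through HIF-1 in many cell types.

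HIF-1 binds DNA at a short core written ACGTG or GCGTG. The 250 bases before the annotated transcription start are shown for 3 members that rose in hypoxia within 3 h and for PLOD3, the 1 tested member that was not called in hypoxia in shGFP. The sequences are from RefSeq (GRCh38.p14), read 5′ to 3′ along the gene, with each match on either strand in capitals (a match on the opposite strand reads CACGT or CACGC). The windows are chr5:122078260-122078509 for LOX, chr10:73096867-73097116 for P4HA1, chr3:146161185-146161434 for PLOD2 and chr7:101217582-101217831 for PLOD3, all on the minus strand.
LOX: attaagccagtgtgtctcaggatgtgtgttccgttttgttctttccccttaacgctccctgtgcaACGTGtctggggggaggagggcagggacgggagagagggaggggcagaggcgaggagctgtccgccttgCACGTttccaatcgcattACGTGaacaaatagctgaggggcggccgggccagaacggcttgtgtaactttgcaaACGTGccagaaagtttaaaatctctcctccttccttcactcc
P4HA1: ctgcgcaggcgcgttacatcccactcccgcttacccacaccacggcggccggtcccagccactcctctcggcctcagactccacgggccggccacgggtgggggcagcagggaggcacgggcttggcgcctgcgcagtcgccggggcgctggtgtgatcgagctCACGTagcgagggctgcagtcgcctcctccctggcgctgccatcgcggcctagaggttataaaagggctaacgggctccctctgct
PLOD2: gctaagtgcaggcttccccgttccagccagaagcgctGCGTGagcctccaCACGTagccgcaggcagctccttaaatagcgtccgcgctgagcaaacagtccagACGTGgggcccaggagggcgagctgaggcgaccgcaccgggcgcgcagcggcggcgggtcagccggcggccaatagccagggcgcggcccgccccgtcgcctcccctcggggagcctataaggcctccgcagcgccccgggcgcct
PLOD3: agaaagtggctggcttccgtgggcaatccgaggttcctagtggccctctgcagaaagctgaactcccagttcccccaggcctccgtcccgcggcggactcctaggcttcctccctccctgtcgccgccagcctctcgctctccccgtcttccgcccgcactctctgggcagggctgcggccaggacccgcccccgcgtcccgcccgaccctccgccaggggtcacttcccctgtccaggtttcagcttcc

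LOX has 3 annotated starts, and the outermost is shown. Its window held 4 matches, all ACGTG, whose first bases lay 42, 98, 116 and 185 bases before the start. The windows of the other 2 LOX starts, which lie inside the gene, held 2 matches each, 1 of them GCGTG. The PLOD2 window held 3 matches, at 146, 200 and 213 bases before the start, of which 1 was GCGTG. The P4HA1 window held 1 match, at 86 bases, and the PLOD3 window none. Of the 9 members, 8 had an entry in the promoter table and 5 of these 8 held a match: P4HB held 1, PLOD1 2, and LOXL1 and P4HA2 none. The P4HA2 window (chr5:132227092-132227341, minus strand) lay inside the gene, whose outer end is at 132227853. The bases before that end were not searched. Among 35116 windows of the same length over all genes, 43.2% held a match, 7.76% held 3 or more and 3.22% held 4 or more. These letters describe the windows. A match is not shown to be a bound site, and windows without one say nothing of binding elsewhere in the gene.

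The array annotation named 20046 genes in all. Of the 15 probes, 11 passed the filter for measurable signal, and they covered 7 of the 9 genes. LOXL1 and LOXL2, paralogues of LOX that also cross-link collagen and elastin, were not among them. The 2 LOXL1 probes ran from 0.734 to 0.973 and from 0.583 to 0.93 times the array median, and the LOXL2 probe from 0.698 to 0.999 times, so that neither gene exceeded the median of its array in any of 24 arrays. They were left out of the comparisons between groups. A second P4HA1 probe (ILMN_1747442) exceeded the median in 1 array and was left out as well. Levels below are log2 of the quantile-normalized intensity of the brightest probe of each gene. They compare samples for 1 probe, and the level of one gene is not set against that of another.

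The libraries and labels were checked first. HIF1A was lower in shHIF-1A than in shGFP at all 3 times, with a mean difference of −1.48 ± 0.096 log2 units (± standard error, 2.79-fold, adjusted p = 1.77e-11), and NDRG3 was lower in shNDRG3 (−2.18 ± 0.068, 4.54-fold, adjusted p = 1.09e-17). Within groups, replicate arrays correlated at 0.9798 to 0.9973 over the brightest tested probe of each gene. The 2 arrays of shNDRG3 at 24 h were the least alike (0.9798), and shHIF-1A replicate 2 at 3 h stood apart from its 2 partners (0.9912 and 0.9914). What the members show without either replicate 2 is given after each knockdown comparison. Whether replicate arrays came from separate cultures is not stated in the labels, and the p-values measure no more than the spread between arrays, which may be technical. Of 11 hepatocyte markers with a probe, 2 (FOXA1 and CEBPA) lay above 2 times the median of the array in normoxia, while ALB lay at 1.97 and AFP at 0.834 times. The others, APOA1, APOB, TTR, TF, SERPINA1, FGB and AHSG, lay at 0.655 to 1.07 times. Most hepatocyte markers were thus near the array median or below it, and the name Huh-7 is taken from the labels. Of the 4 epithelial markers, the keratins KRT8 (72.6 times) and KRT18 (9.5 times) were bright, whereas CDH1 (0.834 times) and EPCAM (1.45 times) were not, and the mesenchymal filament VIM lay at 115 times. Markers of other cell types were also followed. The summed level of the 10 fibroblast markers ran from 12.6 times the array median in shNDRG3 at 6 h to 29 times in shGFP at 24 h, with ACTA2 and COL1A1 as the members above 2 in normoxia and DCN, LUM and PDGFRA at 0.868 to 1.09. The 3 blood markers summed to 14.5 to 81.9 times, highest in shGFP at 24 h, nearly all of it CD68, with PTPRC at 0.871 in normoxia. The 4 endothelial markers summed to 3.95 to 6.3 times. The epithelial markers summed to 43.5 times in shGFP at 24 h, the lowest group, and to 95.9 times in shHIF-1A at 12 h, the highest. The part of these shifts in the results was not tested. In bulk RNA, fewer cells with a transcript and less transcript per cell cannot be told apart.

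In the shGFP line, 6 of the 7 tested members rose during hypoxia, at different hours. LOX, P4HA1 and PLOD2 were higher than in normoxia from 3 h, P4HA2 from 6 h, and P4HB and PLOD1 from 12 h, while PLOD3 passed the test at no time. By count, 3 of 7 members were called higher at 3 h, where 1.18% of 15246 genes were (limma, adjusted p under 0.05). The count was 4 at 6 h against 2.8% of all genes, 6 at 12 h against 12.1%, and 6 at 24 h against 20.2%, and no member was called lower at any of these times, where 0.144%, 1.29%, 11.3% and 23.2% of all genes were. The median member difference was 0.25, 0.74, 1.70 and 1.86 log2 units at 3, 6, 12 and 24 h, beside 0.01, 0.00, 0.01 and 0.00 over all genes. Time at 1% oxygen and time in culture cannot be told apart, since normoxia was sampled once.

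**Figure D1:**
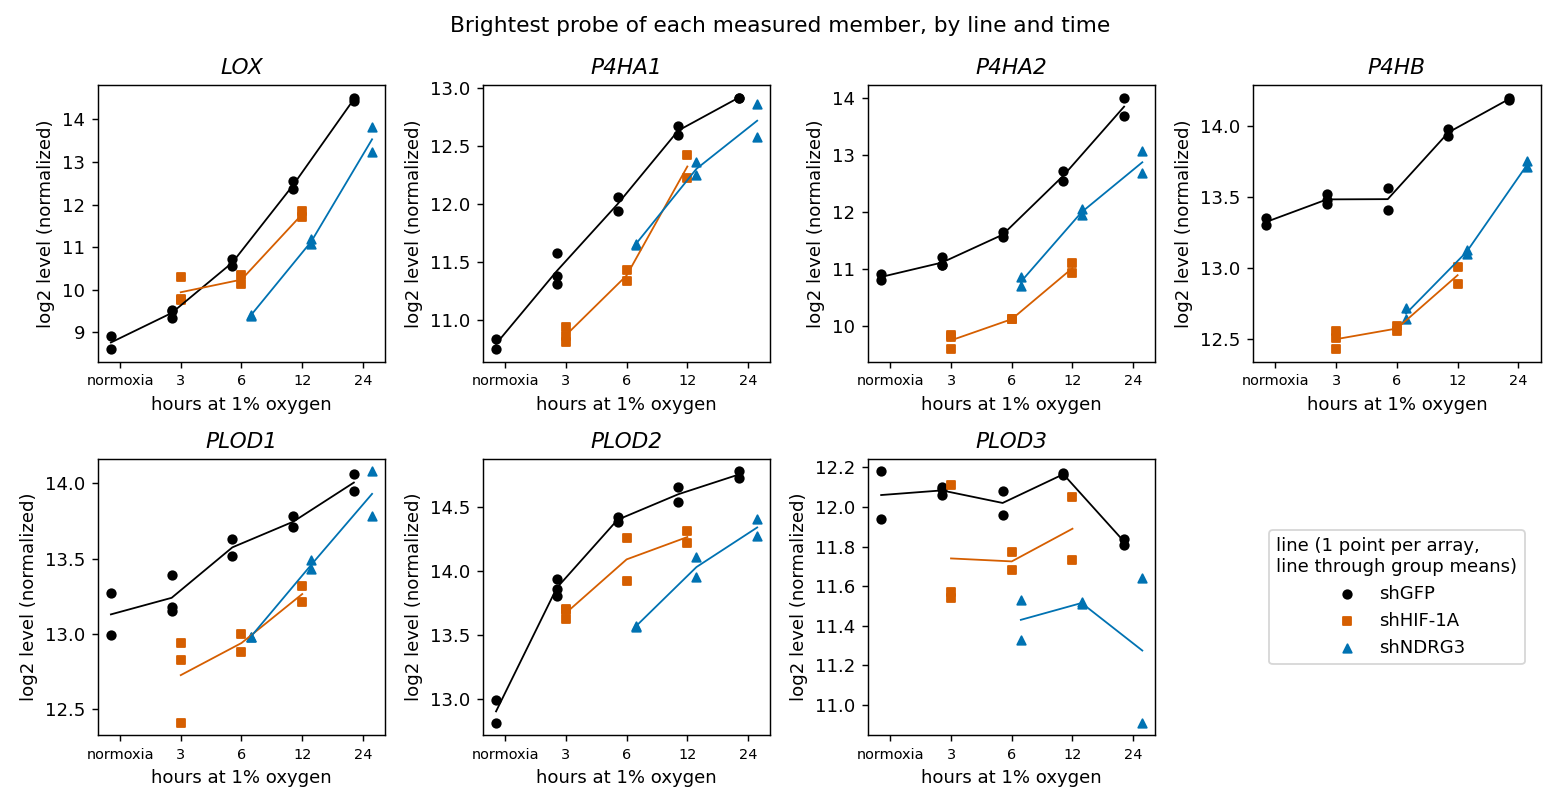
Log2 level of the brightest probe of each measured member (vertical axis, quantile-normalized intensity, with its own scale in each panel) against hours at 1% oxygen (horizontal axis, evenly spaced categories), with 1 point per array, coloured by line, and lines through group means. LOX climbs from about 8.76 in shGFP normoxia to 14.47 at 24 h. PLOD2 flattens after 6 h in shGFP by the probe shown, and PLOD3 shows no rise. The P4HA2 points of shHIF-1A lie below those of shGFP at every shared time.

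The catalytic subunits of prolyl 4-hydroxylase rose in different ways. P4HA1 stood at 10.84 and 10.75 in shGFP normoxia, at 11.38, 11.31 and 11.58 after 3 h, at 11.94 and 12.06 after 6 h, at 12.60 and 12.67 after 12 h, and at 12.92 in both arrays after 24 h. The 5 groups did not overlap and followed the order of time. The difference from normoxia was 0.63 ± 0.10 at 3 h (adjusted p = 0.00129) and 2.12 ± 0.11 at 24 h (4.36-fold, adjusted p = 5.66e-13). The steps from 3 to 6 h (0.58, adjusted p = 0.0064) and from 6 to 12 h (0.64, adjusted p = 0.00111) passed the test, and the step from 12 to 24 h (0.28 ± 0.11, adjusted p = 0.0912) did not.

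P4HA2, the other catalytic subunit, moved later and further. It stood at 10.92 and 10.81 in normoxia, at 11.07, 11.21 and 11.07 after 3 h, at 11.56 and 11.65 after 6 h, at 12.55 and 12.73 after 12 h, and at 13.69 and 14.01 after 24 h. Each group lay above the one before, although the difference at 3 h (0.25 ± 0.12, adjusted p = 0.451) did not pass the test. It reached 0.74 ± 0.13 at 6 h (adjusted p = 0.00134), 1.77 ± 0.13 at 12 h (adjusted p = 8.92e-10) and 2.98 ± 0.13 at 24 h (7.89-fold, adjusted p = 2.63e-14). Its last step, from 12 to 24 h, also passed the test (1.21 ± 0.13, adjusted p = 6.94e-07).

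P4HB, the subunit that holds the alpha subunits in solution and also serves as a general disulfide isomerase, rose by less. It stood at 13.35 and 13.30 in normoxia, between 13.41 and 13.56 in the 5 arrays of 3 and 6 h, at 13.98 and 13.93 after 12 h, and at 14.18 and 14.20 after 24 h. The early arrays lay above normoxia by 0.16 at either time (adjusted p = 0.533 and 0.518), which did not pass the test, whereas 12 h (0.63 ± 0.094, adjusted p = 2.81e-05) and 24 h (0.86 ± 0.094, 1.82-fold, adjusted p = 7.91e-08) did.

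Among the lysyl hydroxylases, PLOD2, the telopeptide lysyl hydroxylase, rose first. It stood at 12.99 and 12.81 in normoxia and at 13.94, 13.80 and 13.86 after 3 h. It then reached 14.42 and 14.38 after 6 h, 14.54 and 14.66 after 12 h, and 14.73 and 14.78 after 24 h. No array in hypoxia overlapped normoxia, and the difference was 0.97 ± 0.10 at 3 h (1.95-fold, adjusted p = 1.97e-06), 1.51 ± 0.11 at 6 h (adjusted p = 2.91e-09) and 1.86 ± 0.11 at 24 h (3.63-fold, adjusted p = 5.38e-12). After the step from 3 to 6 h (0.54, adjusted p = 0.0107), the steps to 12 h (0.19, adjusted p = 0.439) and to 24 h (0.16, adjusted p = 0.411) did not pass the test for this probe. The other PLOD2 probes, given below, still rose from 12 to 24 h.

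PLOD1, which hydroxylates lysine in the collagen helix, stood at 12.99 and 13.27 in normoxia and at 14.06 and 13.95 after 24 h. Its arrays overlapped normoxia at 3 h and lay above it from 6 h, with differences of 0.44 ± 0.14 at 6 h (adjusted p = 0.117), 0.62 ± 0.14 at 12 h (adjusted p = 0.00346) and 0.87 ± 0.14 at 24 h (1.83-fold, adjusted p = 3.08e-05). PLOD3, a lysyl hydroxylase that also transfers sugars to hydroxylysine, stood at 12.18 and 11.94 in normoxia and at 11.81 and 11.84 after 24 h. Its 24 h difference was −0.24 ± 0.18 (95% confidence interval −0.61 to 0.14, adjusted p = 0.371), an interval that leaves out any rise of the size seen for the other 6 members at that time. Without normalization between arrays the median gene itself was 0.41 lower at 24 h, and on that scale PLOD3 was called lower (−0.88, adjusted p = 0.00273).

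LOX, which catalyses the first step of cross-linking outside the cell, showed the largest change of the tested members. It stood at 8.92 and 8.61 in normoxia, at 9.52, 9.51 and 9.34 after 3 h, at 10.55 and 10.73 after 6 h, at 12.55 and 12.36 after 12 h, and at 14.51 and 14.43 after 24 h. The groups did not overlap, and each lay above the one before. The difference from normoxia grew from 0.69 ± 0.16 at 3 h (adjusted p = 0.0267) to 1.87 ± 0.17 at 6 h (adjusted p = 9.17e-08), 3.69 ± 0.17 at 12 h (12.9-fold, adjusted p = 4.59e-13) and 5.71 ± 0.17 at 24 h (52.2-fold, adjusted p = 5.5e-17). All 3 steps between hypoxic times passed the test: 1.18 ± 0.16 from 3 to 6 h (adjusted p = 0.000268), 1.82 ± 0.17 from 6 to 12 h and 2.02 ± 0.17 from 12 to 24 h. The 3 h call was lost on leaving out any 1 of the 5 arrays compared (differences of 0.54 to 0.85), and also with median-centred arrays (0.61, adjusted p = 0.212) and without normalization (0.56, adjusted p = 0.173).

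**Figure D2:**
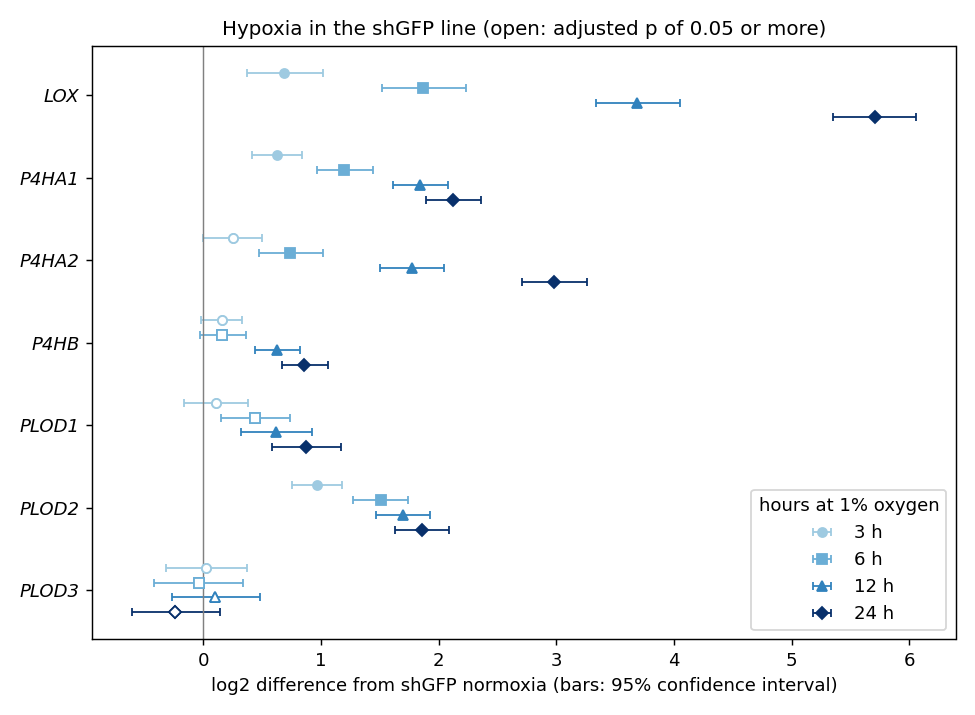
Log2 difference from shGFP normoxia (horizontal axis) for each measured member (rows) after 3, 6, 12 and 24 h at 1% oxygen, with 95% confidence intervals as bars and open symbols where the adjusted p was 0.05 or more. The 4 LOX values spread from 0.69 to 5.71, those of PLOD2 lie between 0.97 and 1.86, and all 4 of PLOD3 are open.

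Counted over the steps between hypoxic times, 3 members rose from 3 to 6 h (LOX, P4HA1 and PLOD2), where 0.492% of all genes did. From 6 to 12 h, 4 rose (LOX, P4HA1, P4HA2 and P4HB) against 3.98% of all genes. From 12 to 24 h, 2 rose (LOX and P4HA2) against 11.2%.

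The members also rose in hypoxia within the knockdown lines. In shHIF-1A, 6 of 7 members were higher at 12 h than at 3 h, where 9.9% of all genes were, and PLOD3 was not called (0.15 ± 0.17). The largest of these were LOX (1.83 ± 0.16, adjusted p = 2.44e-08), P4HA1 (1.45 ± 0.10, adjusted p = 1.5e-09) and P4HA2 (1.27 ± 0.12, adjusted p = 1.59e-07). In shNDRG3, the same 6 were higher at 24 h than at 6 h, where 18.3% of all genes were, led by LOX (4.13 ± 0.17, adjusted p = 2.21e-14), P4HA2 (2.09 ± 0.13, adjusted p = 2.96e-11) and P4HA1 (1.06 ± 0.11, adjusted p = 9.31e-08).

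The next comparisons ask how far the members depended on HIF-1A or NDRG3, with shGFP of the same hour as the control. Both use the same shGFP arrays at 6 and 12 h, so they are not independent, and the values of each are given on their own. The series' design text speaks of knockdown cells in normoxia, but among the arrays used here the labels give normoxia to shGFP only, so a difference that was present before hypoxia cannot be told apart from one in the response to it.

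In shHIF-1A, subunits of prolyl 4-hydroxylase showed the largest differences from shGFP. Over the mean of 3, 6 and 12 h, 6 of 7 members were lower, where 18.2% of all genes were, and none was higher, where 18.4% were. P4HA2 fell most, followed by P4HB, while LOX was not called on this mean. At single times 4 members were lower at 3 h (12.4% of all genes), 4 at 6 h (8.98%) and 5 at 12 h (11.4%). LOX alone was higher at 3 h (10.7% of all genes), and no member was at 6 h (7.28%) or 12 h (9.89%). The median member difference over the 3 times was −0.49, beside 0.00 over all genes.

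P4HA2 stood at 9.82, 9.60 and 9.84 in shHIF-1A at 3 h, at 10.13 and 10.12 at 6 h, and at 11.11 and 10.93 at 12 h. All 7 arrays lay below the shGFP arrays of the same hour, and those of 3 and 6 h also lay below shGFP normoxia. The difference from shGFP went from −1.37 ± 0.11 at 3 h through −1.48 ± 0.13 at 6 h to −1.62 ± 0.13 at 12 h, and averaged −1.49 ± 0.072 (2.81-fold lower, adjusted p = 7.08e-14).

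P4HB stood at 12.56, 12.51 and 12.43 in shHIF-1A at 3 h, at 12.56 and 12.59 at 6 h, and at 13.01 and 12.89 at 12 h. These 7 arrays were below every shGFP array, normoxia included. The mean difference at matched times was −0.97 ± 0.051 (1.95-fold lower, adjusted p = 3.69e-13), with −0.98 ± 0.077 at 3 h and −0.91 ± 0.094 at 6 h. P4HA1 stood at 10.86, 10.94 and 10.81 at 3 h, at 11.43 and 11.34 at 6 h and at 12.42 and 12.23 at 12 h, again below shGFP at each hour without overlap. Its difference was −0.55 ± 0.092 at 3 h (adjusted p = 0.000121), −0.61 ± 0.11 at 6 h (adjusted p = 0.000531) and −0.31 ± 0.11 at 12 h (adjusted p = 0.0634), and −0.49 ± 0.062 on average (1.41-fold lower, adjusted p = 9.27e-07).

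PLOD1 was lower in shHIF-1A at each hour and on average (−0.54, adjusted p = 7.51e-06). Its 3 h call was lost with median-centred arrays (−0.31, adjusted p = 0.0599) and without normalization (−0.28, adjusted p = 0.108), and its 12 h call on leaving out any 1 of the 4 arrays compared (highest adjusted p = 0.15). PLOD2 was lower by its brightest probe on average (−0.28 ± 0.061, adjusted p = 0.000949), with 12 h as the only single time called (−0.33 ± 0.11, adjusted p = 0.0457). That 12 h call was lost with median-centred arrays (−0.24, adjusted p = 0.313) and without normalization (−0.23, adjusted p = 0.342). It was also lost with background correction (adjusted p = 0.0686) and without the filter on dim probes (adjusted p = 0.0601). PLOD3 passed the test on average (−0.30 ± 0.099, adjusted p = 0.0227) and at no single time. The mean calls of PLOD2 and PLOD3 were lost when arrays were only centred on their medians (PLOD2 −0.17, adjusted p = 0.101, and PLOD3 −0.22, adjusted p = 0.263). Without shHIF-1A replicate 2 at 3 h, the 3 h differences were −1.29 for P4HA2, −0.99 for P4HB, −0.59 for P4HA1 and −0.35 for PLOD1, all still called, and −0.17 for PLOD2 (adjusted p = 0.333). PLOD3 was then called at 3 h as well (−0.52, adjusted p = 0.014).

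LOX moved differently over time in shHIF-1A. It stood at 9.78, 10.29 and 9.76 at 3 h, at 10.35 and 10.13 at 6 h, and at 11.85 and 11.70 at 12 h. At 3 h all 3 arrays lay above the 3 of shGFP, and at 6 and 12 h both arrays lay below those of shGFP. The difference was 0.49 ± 0.14 at 3 h (adjusted p = 0.0166), −0.39 ± 0.17 at 6 h (adjusted p = 0.164) and −0.68 ± 0.17 at 12 h (adjusted p = 0.00685), with a mean of −0.20 ± 0.093 (adjusted p = 0.131). The 12 h call was lost with median-centred arrays (−0.63, adjusted p = 0.0656) and without normalization (−0.62, adjusted p = 0.0538). The change of the difference from 3 to 12 h was −1.16 ± 0.22 (adjusted p = 0.0142), and LOX was the 1 member of 7 called in that test, where 0.859% of all genes were. Without shHIF-1A replicate 2 at 3 h, the 3 h value was 0.31 (adjusted p = 0.143), the mean was −0.25 (adjusted p = 0.0214) and the change was −0.99 (adjusted p = 0.0245). The call of the change was lost on leaving out any 1 of the 4 arrays of 12 h in these lines, and under both scalings other than quantile (−1.25 with median centring, adjusted p = 0.0877).

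**Figure D3:**
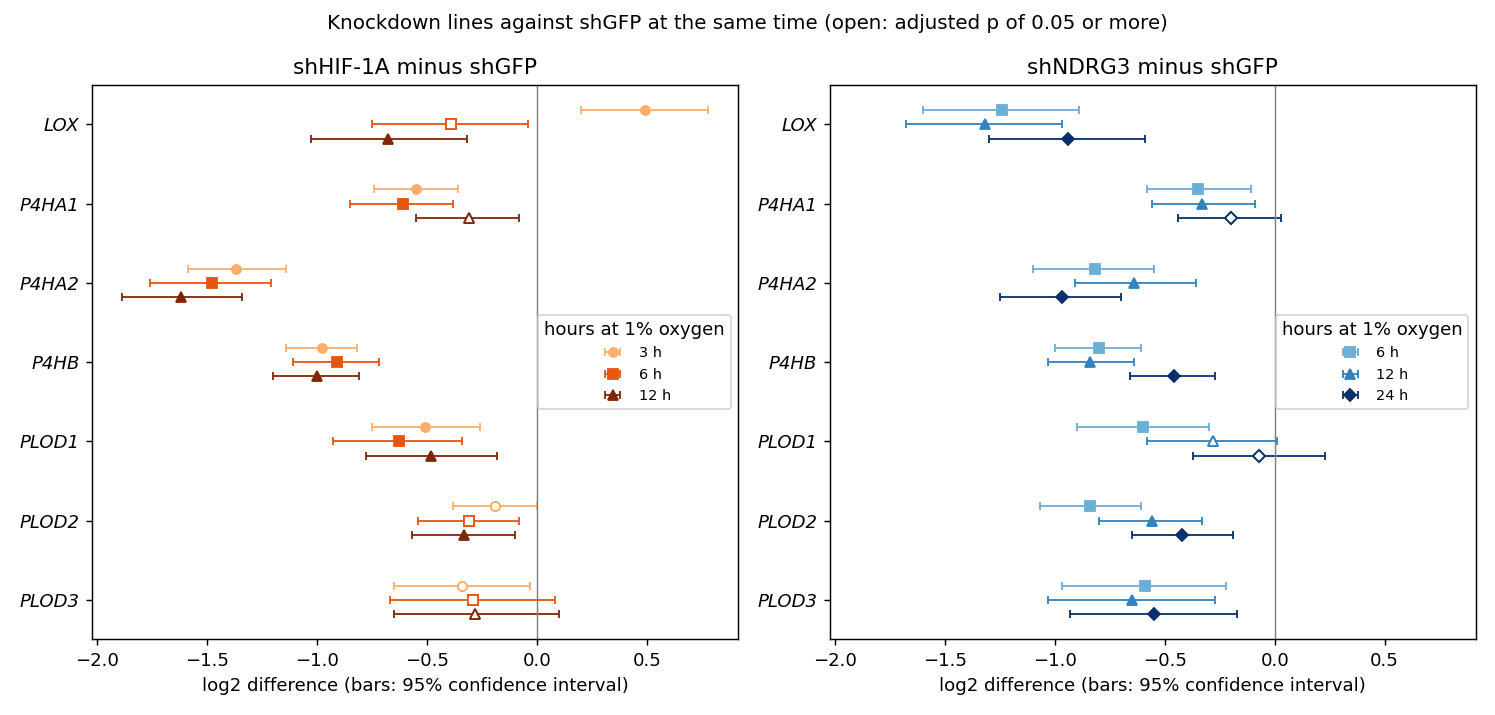
Log2 difference from shGFP at the same hour (horizontal axis) for each measured member (rows), for shHIF-1A at 3, 6 and 12 h (left) and shNDRG3 at 6, 12 and 24 h (right), with 95% confidence intervals as bars and open symbols where the adjusted p was 0.05 or more. P4HA2 lies lowest on the left, between −1.37 and −1.62, where the LOX symbols run from 0.49 to −0.68. On the right LOX lies lowest, between −0.94 and −1.32.

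In shNDRG3, all 7 tested members were lower than in shGFP over the mean of 6, 12 and 24 h, where 20.2% of all genes were, and none was higher, where 21.9% were. LOX fell most, followed by P4HA2. At single times 7 members were lower at 6 h (12.5% of all genes), 6 at 12 h (13.2%) and 5 at 24 h (15.2%). None was higher at these hours, where 11%, 12.5% and 16.1% of all genes were. The median member difference was −0.61, beside 0.02 over all genes.

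LOX stood at 9.41 and 9.38 in shNDRG3 at 6 h, at 11.08 and 11.19 at 12 h, and at 13.82 and 13.24 at 24 h. Each pair lay below its shGFP pair without overlap. The difference was −1.24 ± 0.17 at 6 h (adjusted p = 9.12e-06), −1.32 ± 0.17 at 12 h (adjusted p = 3.22e-06) and −0.94 ± 0.17 at 24 h (adjusted p = 0.000179), with a mean of −1.17 ± 0.099 (2.25-fold lower, adjusted p = 1.18e-09). Without shNDRG3 replicate 2 at 24 h, the 24 h difference was −0.65 (adjusted p = 0.00732).

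P4HA2 stood at 10.70 and 10.86 at 6 h, at 11.95 and 12.05 at 12 h, and at 13.07 and 12.68 at 24 h, below shGFP at each hour. Its mean difference was −0.81 ± 0.077 (1.76-fold lower, adjusted p = 7.37e-09). P4HB stood at 12.64 and 12.72 at 6 h, at 13.10 and 13.13 at 12 h, and at 13.75 and 13.71 at 24 h, and was lower by 0.80, 0.84 and 0.46 log2 units at these hours (mean −0.70 ± 0.054, 1.63-fold lower, adjusted p = 2.41e-10). P4HA1 was closer to shGFP, with a mean of −0.29 ± 0.065 (adjusted p = 0.000901) and no call at 24 h (−0.20 ± 0.11, adjusted p = 0.235). Its 6 and 12 h calls were lost with median-centred arrays (adjusted p = 0.124 and 0.074) and without normalization (adjusted p = 0.185 and 0.065). Background correction also lost both (adjusted p = 0.0518 and 0.0639).

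By its brightest probe (the others are given below), PLOD2 stood at 13.57 and 13.56 in shNDRG3 at 6 h. It stood at 13.95 and 14.11 at 12 h, and at 14.27 and 14.41 at 24 h. The pair at 6 h lay below the 3 shGFP arrays of 3 h, and both later pairs lay below shGFP at the same hour. The difference was −0.84 ± 0.11 at 6 h (adjusted p = 6.19e-06), −0.56 ± 0.11 at 12 h (adjusted p = 0.000621) and −0.42 ± 0.11 at 24 h (adjusted p = 0.00702), and −0.61 ± 0.065 on average (1.52-fold lower, adjusted p = 5.48e-08). The 24 h call was lost with median-centred arrays (−0.29, adjusted p = 0.15), without normalization (−0.27, adjusted p = 0.194), with array weights (adjusted p = 0.13) and with only the compared arrays in the fit (adjusted p = 0.121). PLOD3 stood at 11.53 and 11.33 at 6 h, at 11.52 and 11.51 at 12 h, and at 10.91 and 11.64 at 24 h. All 6 arrays lay below those of shGFP at the same hour, and the mean difference was −0.60 ± 0.10 (1.51-fold lower, adjusted p = 6.26e-05). With median-centred arrays it was not called at 6 h (−0.58, adjusted p = 0.137), 12 h (−0.70, adjusted p = 0.0586) or 24 h (−0.52, adjusted p = 0.16). Its 24 h value depended on single arrays: −0.55 ± 0.18 with both (adjusted p = 0.0284), −0.92 without replicate 2 (adjusted p = 0.000217) and −0.19 without replicate 1 (adjusted p = 0.516). PLOD1 was lower at 6 h (−0.60 ± 0.14, adjusted p = 0.00424) and not called at 12 h (−0.28, adjusted p = 0.201) or 24 h (−0.07, 95% confidence interval −0.37 to 0.23, adjusted p = 0.809). Without shNDRG3 replicate 2, the 24 h differences were −0.78 for P4HA2, −0.44 for P4HB and −0.49 for PLOD2, all still called. P4HA1 (−0.06, adjusted p = 0.828) and PLOD1 (−0.23, adjusted p = 0.408) were again not called. PLOD3 was then lower at 24 h than at 6 h within shNDRG3 (−0.52, adjusted p = 0.0219).

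The change of the shNDRG3 difference from 6 to 24 h was called for 0 of 7 members by limma, where 9.21% of all genes were called. The estimates ran from −0.15 for P4HA2 to 0.52 for PLOD1 (adjusted p = 0.144). Without shNDRG3 replicate 2 at 24 h and shHIF-1A replicate 2 at 3 h, LOX was called (0.58, adjusted p = 0.0351).

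Set directly against each other at 6 and 12 h, the knockdown lines differed in 3 of 7 members. LOX (0.75 ± 0.12, adjusted p = 0.000134) and PLOD2 (0.38 ± 0.08, adjusted p = 0.00208) were higher in shHIF-1A than in shNDRG3, where 7.81% of all genes were, and P4HA2 was lower (−0.82 ± 0.094, adjusted p = 1.1e-06), where 6.45% were. The other 4 did not pass the test. Their 95% confidence intervals were −0.29 to 0.04 for P4HA1, −0.28 to 0.00 for P4HB, −0.33 to 0.09 for PLOD1 and 0.07 to 0.60 for PLOD3. The PLOD3 result depended on the setting. It was called higher in shHIF-1A with only the compared arrays in the fit (0.34, adjusted p = 0.00743) and with array weights (0.34, adjusted p = 0.00496). Under another alternative its adjusted p reached 0.242.

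P4HA2 and PLOD2 each had 3 tested probes. The P4HA2 probe ILMN_2381697 followed the brightest one, ILMN_1795778, over the 11 group means (Pearson r = 1.00) and gave 2.82 ± 0.12 at 24 h, −1.38 ± 0.063 for shHIF-1A and −0.76 ± 0.067 for shNDRG3, all called. The dim probe ILMN_2280135 exceeded the array median in 5 arrays and was higher at 24 h, at least 2.27-fold (adjusted p = 0.000104). For PLOD2, ILMN_2410924, which like the brightest probe is annotated to NM_000935, rose by 2.27 ± 0.19 at 24 h and also from 12 to 24 h (0.63 ± 0.19, adjusted p = 0.0193), where the brightest probe did not pass the test. ILMN_1799139, annotated to the transcript NM_182943, was not called at 12 h (0.51 ± 0.18, adjusted p = 0.0574) and was higher at 24 h (1.47 ± 0.18, adjusted p = 5.61e-07). Its shGFP mean also went up late, from 8.08 at 12 h to 9.04 at 24 h.

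In the knockdown lines, the PLOD2 probes gave unlike values for shHIF-1A and, on the mean over times, like values for shNDRG3. In shHIF-1A, against −0.28 for the brightest probe, the others gave −0.06 ± 0.10 (adjusted p = 0.756) and 0.02 ± 0.099 (adjusted p = 0.916). On this mean of 3, 6 and 12 h, the lower level was thus called for 1 probe of 3. For ILMN_2410924 the shHIF-1A arrays of 3 h ran from 10.03 to 10.82. The mean of that probe lay below shGFP at 6 h (10.50 and 10.63) and 12 h (10.80 and 11.11), and neither difference was called. ILMN_1799139 lay at 1.34 and 1.44 times the array median at 3 h, where a drop could be hidden. At 12 h its mean was higher in shHIF-1A (8.35 and 8.08), with overlapping arrays and no call. In shNDRG3 all 3 were called lower, by 0.61, 0.63 and 0.54 log2 units. The direct difference between the lines, 0.38 for the brightest probe, was 0.36 ± 0.13 (adjusted p = 0.0963) and 0.26 ± 0.13 (adjusted p = 0.251) for the others, close in size but not called. The difference between probes was not tested.

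**Figure D4:**
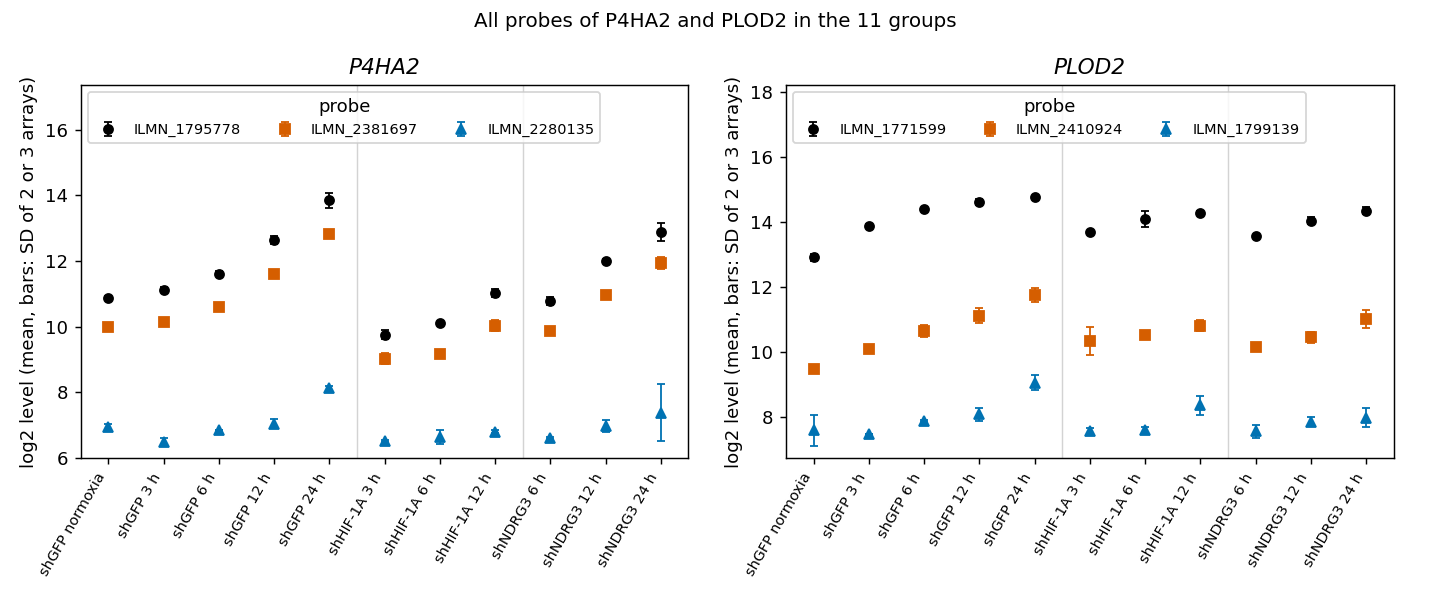
Mean log2 level (vertical axis, bars are the SD over 2 or 3 arrays) of the 3 probes of P4HA2 (left) and of PLOD2 (right) in the 11 groups of line and hours at 1% oxygen (horizontal axis). Both brighter P4HA2 probes run in parallel, with r = 1.00 over the group means, whereas the dimmest PLOD2 probe, ILMN_1799139, is high mainly in shGFP at 24 h.

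Over the 11 group means, the members differed in how alike their patterns were. These correlations share arrays and are descriptions. P4HA2 and PLOD1 were most alike (r = 0.97), followed by P4HB with PLOD1 (0.91) and by LOX with P4HA1 and P4HA2 with P4HB (0.90 each). PLOD2 was closest to P4HA1 (0.85) and LOX (0.84), and PLOD3 ran between −0.20 and 0.29 with the others. When the 11 groups were ordered by level, 8 of the 10 neighbouring pairs did not overlap for LOX and for P4HB, 7 for P4HA2, 6 for P4HA1 and PLOD2, 4 for PLOD1 and 2 for PLOD3. The same count was not made over all genes, so these numbers are not shown to be unusual. For LOX the overlapping neighbours were shNDRG3 at 6 h with shGFP at 3 h, and shHIF-1A at 3 h with shHIF-1A at 6 h. Among 15026 other genes, the pattern most like LOX was that of RAB27A, a GTPase of vesicle secretion (r = 0.991), and the pattern most like P4HA2 was that of ANG, the ribonuclease angiogenin (0.997). P4HA1 was most like TMEM45A (0.986) and the glycolytic aldolase ALDOA (0.984), P4HB most like UBE2H (0.987), PLOD1 most like CFD (0.989) and PLOD3 most like ADGRG1 (0.971). PLOD2 was most like CDC42EP4 (0.966) and the hexokinase HK2 (0.963).

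Other genes of collagen maturation were followed as lists. Of 22 further enzymes and chaperones that modify collagen, 18 were tested, and at 24 h of hypoxia in shGFP 7 were higher and 3 lower, with a median of 0.21 beside 0.00 over all genes, of which 20.2% were higher and 23.2% lower. Those that rose included LOXL4, a lysyl oxidase paralogue (at least 3.49-fold higher, adjusted p = 2.3e-10), BMP1, which removes the collagen C-propeptide (2.17-fold, adjusted p = 9.21e-08), its enhancer PCOLCE (1.99-fold, adjusted p = 1.94e-05) and the collagen chaperone FKBP10 (2.09-fold, adjusted p = 7.21e-06). In shHIF-1A 0 were higher and 3 lower on average, where 18.4% and 18.2% of all genes were. In shNDRG3 0 were higher and 6 lower, where 21.9% and 20.2% were. SERPINH1, the chaperone HSP47, was lower in both (−0.60 ± 0.073 in shHIF-1A and −0.63 ± 0.078 in shNDRG3). LOXL4 (at least 1.52-fold, adjusted p = 1.03e-06) and BMP1 (−0.46 ± 0.071) were lower in shNDRG3, and BMP1 was higher in shHIF-1A than in shNDRG3 (0.68 ± 0.087, adjusted p = 5.45e-06).

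Of 31 collagen chains, 24 were tested, and 8 were higher and 4 lower at 24 h in shGFP, with a median of 0.17, against the same 20.2% and 23.2% of all genes. COL7A1, the anchoring-fibril collagen, rose 3.9-fold (adjusted p = 3.33e-10) and COL5A1, a fibril-forming chain, 3.02-fold (adjusted p = 5.15e-09), whereas COL12A1 fell by 0.83 log2 units (adjusted p = 2.91e-05). In shHIF-1A 5 were lower, a share near the 18.2% of all genes, and 0 higher on average. Among the 5 were COL16A1 (−0.79 ± 0.086) and COL5A1 (−0.73 ± 0.079). In shNDRG3 9 were lower, where 20.2% of all genes were, among them COL5A1 (adjusted p = 1.02e-09) and the basement membrane chain COL4A1 (−0.90 ± 0.073), and COL5A2 was higher (0.87 ± 0.057, adjusted p = 1.35e-11). Median differences over the chains were −0.07 in both lines.

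All 15 genes listed as elastic fibre and cross-link partners were tested, among them the matrix glycoproteins FN1, POSTN and TNC, which are not elastic fibre genes. At 24 h in shGFP 1 was higher, EFEMP2 or fibulin-4, which binds LOX and tropoelastin (at least 13.5-fold, adjusted p = 5.01e-16), and 3 were lower: FBN2 (−1.21 ± 0.16), MFAP5 (−0.70 ± 0.18) and EFEMP1 (−0.68 ± 0.15). Both counts lay below the shares of all genes, 20.2% and 23.2%. The microfibril gene FBN2 was higher in shHIF-1A (0.92 ± 0.087) and in shNDRG3 (1.07 ± 0.093) than in shGFP. EFEMP2 was lower in shHIF-1A (at least 1.52-fold, adjusted p = 2.86e-07) and in shNDRG3 (at least 1.43-fold, adjusted p = 3.94e-06). In each line the list moved both ways, with 2 higher and 4 lower in shHIF-1A, and 2 higher and 5 lower in shNDRG3, where all genes gave 18.4% and 18.2%, and 21.9% and 20.2%.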

How the data were processed

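Per the labels, Illumina bead arrays read biotin-labelled total RNA from 24 samples. The deposited values are intensities on a linear scale for 47231 probes, from 52.6 to 59613, with array medians of 115 to 150. The scanner software, background subtraction and normalization of the authors were not given in the sources used here. Intensities were quantile-normalized and taken to log2. A probe was kept where it exceeded the array median in at least 2 arrays (31100 probes). Group means of all 24 arrays were fitted with limma 3.58.1 in R 4.3.3 (lmFit, eBayes, 13 residual and 9.59 prior degrees of freedom). Two-sided p-values were adjusted (Benjamini-Hochberg) over the kept probes of each comparison, with a threshold of 0.05. Each gene was represented by its brightest kept probe (15246 genes), and other member probes are shown beside it. A fold is written "at least" where a compared group lay below 1.5 times the array median. Of all probes, 30113 had 1 gene symbol, 8 several and 17110 none, and the 9 members matched RefSeq by identifier. Genes outside the set were named where they had the lowest adjusted p of their list in a comparison, at most 4, or the highest correlation with a member. Members and lists were chosen with earlier results of these data known. Same-numbered replicates deviated together in few group pairs (r −0.10 to 0.27, median 0.01, over 55 pairs, 3 of them above 0.1). The main fit did not pair samples by number. Whether same-numbered arrays share a batch or culture is not settled by these values. The fit was tested on simulated data. Alternatives were other normalizations, filters, probe choices, array weights, a replicate block and leaving out arrays. The number of arrays limits the precision.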

Additional observations from a re-analysis of the deposited data

Results flagged for a closer look

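The difference in LOX between shHIF-1A and shGFP changed with time in hypoxia. It went from 0.49 log2 units at 3 h to −0.68 at 12 h, a change of −1.16 ± 0.22 (limma, adjusted p = 0.0142), with all 3 shHIF-1A arrays above shGFP at 3 h and both below at 12 h. The result was singled out because the test of the change itself passed the threshold. Its size ran from −0.99 to −1.26 when each array was left out in turn, and the adjusted p from 0.000975 to 0.119. The values at 3 h include shHIF-1A replicate 2 (10.29), the array that stood apart from its 2 partners (9.78 and 9.76), and the part of that array's overall difference in the LOX value was not tested beyond leaving it out. No group held the 4 arrays needed to test for a single outlying value.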

How the results depend on the processing

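No result changed direction while called, under any of the alternatives. Over 7 genes and 20 comparisons, the 1260 values from the 9 planned settings other than leaving out arrays kept their side of the threshold in 1187 cases, lost the call in 51 and gained it in 22. Counts of called members that moved by over 1.5 times were as follows. With median-centred arrays, shHIF-1A at 12 h gave 3 rather than 5, shNDRG3 at 24 h 3 rather than 5, and the change of the shHIF-1A difference 0 rather than 1. With no normalization, these were 2, 2 and 0, the shGFP step from 3 to 6 h gave 1 rather than 3, and shHIF-1A from 3 to 12 h gave 3 rather than 6. With only the compared arrays in the fit, shNDRG3 at 24 h gave 1. With array weights, shNDRG3 at 24 h gave 3 and the shGFP step from 12 to 24 h gave 4 rather than 2. Without shHIF-1A replicate 2 at 3 h and shNDRG3 replicate 2 at 24 h, a setting chosen after seeing the data, that step gave 4 and the change of the shNDRG3 difference 1 rather than 0. Leaving out 1 array at a time, shHIF-1A at 12 h ran from 2 to 6, shNDRG3 at 6 h from 4 to 7, shNDRG3 at 24 h from 3 to 5, both changes of a difference from 0 to 1, and the shGFP step from 3 to 6 h from 1 to 4. The other filters and the fit of 1 probe per gene moved no count by over 1.5 times. The cause of the shifts listed above was not tested. A replicate block changed no count by 1.5 times and lost 2 calls, PLOD2 in shHIF-1A at 12 h (−0.33, adjusted p = 0.0596) and P4HA1 in shNDRG3 at 12 h (−0.33, adjusted p = 0.0513). Without normalization P4HB and PLOD1 were not called at 12 h in shGFP (0.30 each, adjusted p = 0.0852 and 0.105), with the median gene 0.25 lower. Signal over background limits LOXL1 and LOXL2, which were left out of the comparisons.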
